A study of Mus musculus with 6 samples.

Results

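The 44 genes described here encode the enzymes, carriers and regulators that feed pyruvate and fatty acids into the mitochondrial tricarboxylic acid (TCA) cycle and that run it. They were chosen by name as a pathway module, with earlier results of these data known, and comprise 28 TCA cycle and pyruvate genes and 16 fatty acid oxidation genes. All 44 were found in each of the 6 libraries and all had a mean of at least 1 FPKM (mapped fragments scaled to transcript length and to the depth of the library), so that they form 44 of the 10196 genes tested. The libraries were made from splenic T follicular helper (Tfh) cells, the CD4+ T cells that help B cells in germinal centres. Of these, 3 came from FoxP3GFP/DTR CD4Cre/+Bob1fl/fl mice, named Bob1KO by the labels, and 3 from FoxP3GFP/DTR CD4+/+Bob1fl/fl mice, named WT. Both groups therefore carried the floxed allele of Pou2af1, which encodes the transcriptional coactivator Bob1, and the same FoxP3 reporter, and they differed in the Cre allele alone. Cre was under the Cd4 promoter, which is active throughout the CD4 T cell lineage and not in Tfh cells alone. All mice were C57BL/6 and were immunized once, by intraperitoneal injection, with 100 µg of the hapten-protein antigen NP-CGG in complete Freund's adjuvant. Spleen cells with the phenotype CD3+CD4+CXCR5+PD-1+ that lacked the GFP of the FoxP3 reporter were sorted on day 7, and each library pooled several mice of 1 experiment. Mice of both groups were littermates matched for age and sex.

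The TCA cycle oxidizes acetyl-CoA to carbon dioxide and passes the electrons to the respiratory chain as NADH and FADH2. Pyruvate enters it through the mitochondrial pyruvate carrier and the pyruvate dehydrogenase complex, which the pyruvate dehydrogenase kinases switch off, whereas fatty acids enter as acylcarnitines and are shortened in repeated rounds of β-oxidation. In T cells the balance between glycolysis, pyruvate oxidation and fatty acid oxidation is known to shift between quiescent, effector and memory states.

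Pou2af1 was measured at 1.16, 0.237 and 0.317 FPKM in the Bob1KO libraries, against 46.1, 32.5 and 34.4 FPKM in the WT libraries. The groups did not overlap and the log2 fold change was -4.65 ± 0.26 (SE; adjusted P = 0.0035 in limma), as the labels require. Pou2af1 and Pcsk1, a prohormone convertase named here after its values were seen, were the 2 genes, or 0.0196% of those tested, that passed an adjusted P of 0.05. The 8 markers of Tfh cells were all measured. They summed to 2801, 2102 and 2280 FPKM in Bob1KO and 2821, 2070 and 1994 FPKM in WT. The most abundant was Cd3e, which other T cells share. Its level was 929, 733 and 642 FPKM in Bob1KO and 851, 751 and 755 FPKM in WT. Of the 8 markers, 1 was higher in Bob1KO at an unadjusted P of 0.05 in limma, against 3.14% of all genes tested. Foxp3 was below 0.1 FPKM in every library. All 9 measured markers of myeloid cells were also detected. Their summed level was 4633, 83.5 and 1553 FPKM in Bob1KO and 654, 551 and 1066 FPKM in WT, led by S100a8 with 2027, 35.5 and 567 FPKM in Bob1KO and 294, 254 and 447 FPKM in WT. Markers of B cells summed to between 23.5 and 71.9 FPKM in Bob1KO and between 27.0 and 40.0 FPKM in WT, with Cd74 the most abundant at 64.4, 21.3 and 27.9 FPKM in Bob1KO and 33.8, 30.9 and 22.1 FPKM in WT. Those of CD8 T and NK cells summed to between 83.9 and 131 FPKM in Bob1KO and between 96.0 and 143 FPKM in WT, with Nkg7 the most abundant at 96.2, 119 and 68.3 FPKM in Bob1KO and 83.6, 107 and 125 FPKM in WT. Erythroid markers stayed between 7.37 and 15.9 FPKM in Bob1KO and between 3.07 and 14.6 FPKM in WT, with Hba-a1 the most abundant at 5.71, 3.47 and 8.70 FPKM in Bob1KO and 2.07, 7.00 and 4.88 FPKM in WT. The markers of regulatory T cells summed to 65.3, 70.9 and 74.7 FPKM in Bob1KO and 97.5, 49.5 and 68.0 FPKM in WT, nearly all of it from Ikzf2, with 64.7, 69.7 and 73.2 FPKM in Bob1KO and 96.2, 48.4 and 66.3 FPKM in WT. Replicate 2 of each group was the library with transcripts of the Y chromosome, with Ddx3y at 27.9 FPKM in Bob1KO and 29.9 FPKM in WT and at 0 in the other 4 libraries. Since RNA was measured in bulk, fewer cells of a type and less RNA per cell cannot be told apart.

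None of the 44 genes passed the adjusted threshold, and the adjusted P of every one was at least 0.916. Of the 28 TCA cycle and pyruvate genes, 21 had a lower mean and 7 a higher mean log2 value in Bob1KO than in WT, with log2 fold changes from -0.36 to 0.27 and a median of -0.09. The number with a lower mean was 16 without replicate 3 of WT or without replicate 2 of Bob1KO, and 24 without replicate 1 of either group. Among the 16 fatty acid oxidation genes, 11 had a lower and 5 a higher mean log2 value in Bob1KO, with log2 fold changes from -0.23 to 0.22 and a median of -0.05. Here the number with a lower mean was 7 without replicate 3 of WT, fewer than with a higher mean, and 8 without replicate 2 of Bob1KO. Over all genes tested the median was -0.00, and 50.6% had a negative log2 fold change. At an unadjusted P of 0.05, 1 of the 28 TCA cycle and pyruvate genes and 0 of the 16 fatty acid oxidation genes were counted, against 5.32% of all genes tested. That gene, Suclg1, was lower in Bob1KO, as were 2.18% of all genes tested at this P, while 3.14% were higher and 0 members were. The difference was smaller than its own standard error for 18 of 28 and 11 of 16 genes, against 6447 of all 10196 genes tested. On the log2(FPKM + 1) scale, the 95% confidence interval lay within a 2-fold change in either direction for all 44 genes. It lay within a 1.5-fold change for 38 of them. Of all 10196 genes tested, 8596 had intervals within the wider bound and 5266 within the narrower one. In FPKM itself the bounds are wider for low genes such as Idh1. These intervals are not adjusted for the number of genes, and that of Suclg1 alone did not include 0.

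**Figure D1:**
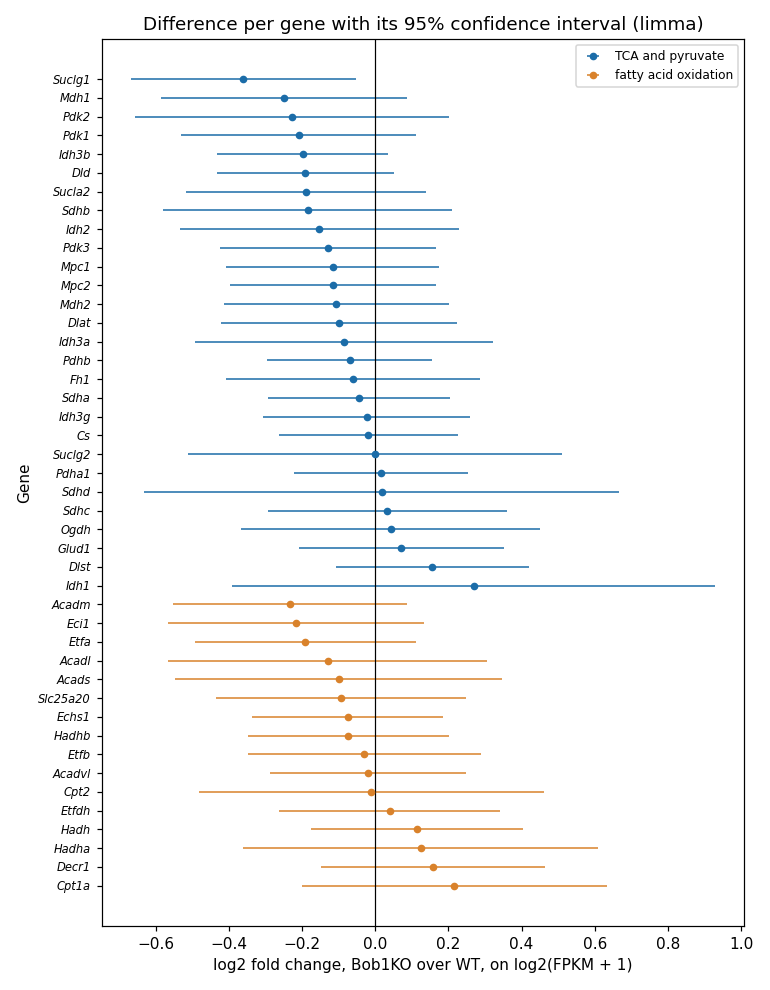
Log2 fold change, Bob1KO over WT on the log2(FPKM + 1) scale (horizontal axis), with its 95% confidence interval in limma, for each TCA cycle and pyruvate gene (blue, upper part) and each fatty acid oxidation gene (orange, lower part), ordered within each set from the most negative value. Points lie between -0.36 (Suclg1) and 0.27 (Idh1), and Suclg1 alone has an interval that does not include 0.

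Among the genes of the cycle itself, Suclg1 had the largest difference in either set relative to its error. It encodes the alpha subunit shared by both forms of succinyl-CoA ligase, the enzyme that makes ATP or GTP directly within the cycle. Its FPKM was 90.0, 78.9 and 86.5 in Bob1KO and 106, 96.8 and 127 in WT. Every Bob1KO library was below every WT library, with means of 85.1 ± 5.66 FPKM in Bob1KO and 110 ± 15.5 FPKM in WT (SD, n = 3 each). The log2 fold change was -0.36 ± 0.13 (SE, 95% confidence interval -0.67 to -0.05), with an unadjusted P of 0.0277 and an adjusted P of 0.916 in limma across all genes, so that it did not pass the test. The beta subunits decide whether the enzyme makes ATP or GTP, and for neither of them were the groups apart. Sucla2, the ATP-forming subunit, was at 30.6, 27.2 and 31.0 FPKM in Bob1KO and 29.7, 32.7 and 40.0 FPKM in WT, with a log2 fold change of -0.19. Suclg2, the GTP-forming subunit, was at 19.6, 11.4 and 14.7 FPKM in Bob1KO and 13.3, 13.7 and 18.2 FPKM in WT, with a log2 fold change of -0.00. Sucla2 made up 66.4 ± 4.85% of the sum of both beta subunits in Bob1KO and 69.4 ± 0.942% in WT (SD, n = 3 each).

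Idh3b, Dld and Dlst were the other members whose groups did not overlap. Together with Suclg1 they were 3 genes lower in every Bob1KO library, against 4.85% of all genes tested, and 1 gene higher in every Bob1KO library, against 5.84% of all genes tested. Idh3b, a subunit of the NAD-dependent isocitrate dehydrogenase, was at 74.3, 71.1 and 76.3 FPKM in Bob1KO and 85.9, 79.7 and 89.4 FPKM in WT. The highest Bob1KO library was thus just below the lowest WT library, and the log2 fold change was -0.20 ± 0.10 (SE, adjusted P = 0.939 in limma). Dld is the lipoamide dehydrogenase that the pyruvate, 2-oxoglutarate and branched-chain ketoacid dehydrogenase complexes share, and had 31.05, 34.1 and 35.1 FPKM in Bob1KO and 37.4, 38.1 and 39.3 FPKM in WT. Its log2 fold change was -0.19 ± 0.10 (SE, adjusted P = 0.946 in limma). Dlst, the succinyltransferase of the 2-oxoglutarate dehydrogenase complex, had its groups apart in the opposite order, with 34.0, 31.7 and 30.8 FPKM in Bob1KO and 30.4, 29.89 and 26.15 FPKM in WT. The gap between the lowest Bob1KO and the highest WT library was small, and the log2 fold change was 0.16 ± 0.11 (SE, adjusted P = 0.946 in limma). Ogdh, the decarboxylase of the same complex, was at 91.6, 60.01 and 88.6 FPKM in Bob1KO and 73.0, 80.5 and 75.9 FPKM in WT, and replicate 2 of Bob1KO was the lowest and replicate 1 of Bob1KO the highest library. The ratio of Ogdh to Dlst was 2.49 ± 0.524 in Bob1KO and 2.66 ± 0.255 in WT (SD, n = 3 each).

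**Figure D2:**
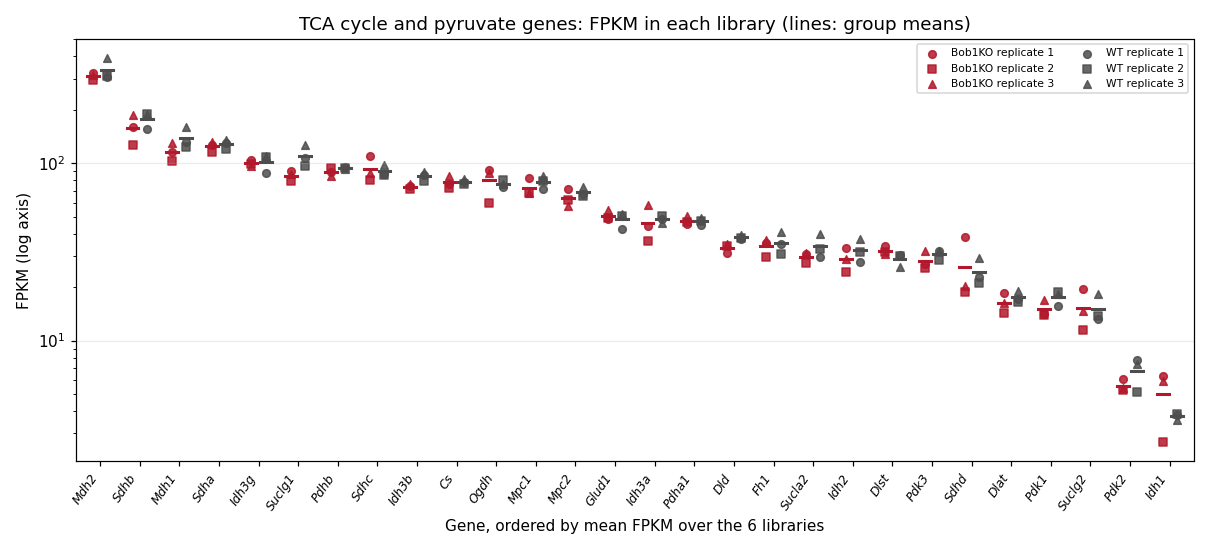
FPKM (log axis) of the 28 TCA cycle and pyruvate genes in each library, ordered by mean level, with Bob1KO (red) left of WT (grey); circles, squares and triangles are replicates 1, 2 and 3 and lines are group means. Levels run from 296 to 392 FPKM for Mdh2 down to 2.68 to 6.31 FPKM for Idh1, and the groups overlap for every gene but Suclg1, Idh3b, Dld and Dlst.

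The promoters of these genes are shown for the member with the largest difference relative to its error and for members of each set that hold a match to a motif of a regulator known from mitochondrial genes. Sequences are those of RefSeq (GRCm38.p6), run from 250 bases before to 50 bases after the annotated start, are written 5′ to 3′ on the strand of the gene, and were found for 41 of the 44 genes, not including Sdhc, Idh3a and Decr1. Capitals mark a motif match on either strand, and the Suclg1 promoter, at chr6:73248255-73248554 on the plus strand, has none. The Dld promoter lies at chr12:31351422-31351721 and that of Acadm, an acyl-CoA dehydrogenase of the fatty acid oxidation set, at chr3:153944594-153944893, both on the minus strand.
Suclg1: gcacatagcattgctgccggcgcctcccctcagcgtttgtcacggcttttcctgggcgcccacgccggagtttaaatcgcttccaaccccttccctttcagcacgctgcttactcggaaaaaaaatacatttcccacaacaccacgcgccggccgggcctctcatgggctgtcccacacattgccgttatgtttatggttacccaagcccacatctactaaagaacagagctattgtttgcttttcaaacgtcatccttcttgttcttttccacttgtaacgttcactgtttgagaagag
Dld: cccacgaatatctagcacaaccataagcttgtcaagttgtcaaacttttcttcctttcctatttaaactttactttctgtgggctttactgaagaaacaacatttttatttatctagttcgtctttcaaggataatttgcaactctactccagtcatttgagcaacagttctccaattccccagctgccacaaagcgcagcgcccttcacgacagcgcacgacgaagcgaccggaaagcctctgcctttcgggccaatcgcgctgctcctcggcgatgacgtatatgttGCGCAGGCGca
Acadm: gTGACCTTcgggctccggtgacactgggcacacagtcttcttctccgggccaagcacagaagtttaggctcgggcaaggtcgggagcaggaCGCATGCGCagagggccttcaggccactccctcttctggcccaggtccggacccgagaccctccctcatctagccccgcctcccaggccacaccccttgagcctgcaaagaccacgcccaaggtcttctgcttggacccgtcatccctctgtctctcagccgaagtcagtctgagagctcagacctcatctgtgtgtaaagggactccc

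The octamer ATGCAAAT, the element through which Bob1 is recruited together with Oct-1 or Oct-2, was in none of the 50 promoters of these 41 genes on either strand, while 1.74% of 32851 RefSeq promoters of this length held it. The NRF1 motif, in the shortened form GCGCANGCG, was in 9 of the 50 promoters, of the 8 genes Dld, Ogdh, Sdha, Sdhd, Sucla2, Acadm, Etfb and Etfdh, against 6.25% of all such promoters. In the Dld sequence it begins 39 bases after the start, and in the Acadm sequence it is the capital run in the middle of the upstream part. The core AAGGTCA, bound by estrogen-related receptors, was in 3 of the 50 promoters, those of Ogdh, Sdhd and Acadm, against 4.72% of all such promoters, and in the Acadm sequence it stands on the opposite strand at the upstream end, as TGACCTT. The motifs do not overlap one another in the sequences shown. They were chosen after the expression values were known, and a match describes letters in this window and not a bound site.

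Isocitrate dehydrogenase exists in a NAD-dependent form within the cycle and in NADP-dependent forms in mitochondria (Idh2) and in the cytosol and peroxisomes (Idh1). Of the NAD-dependent subunits, Idh3a, the catalytic one, was at 44.24, 36.35 and 57.95 FPKM in Bob1KO and 48.3, 50.5 and 45.8 FPKM in WT. Idh3g, another regulatory subunit, was among the most abundant genes of the set, with 105, 98.6 and 96.9 FPKM in Bob1KO and 88.3, 109 and 110 FPKM in WT. Groups overlapped for both, with log2 fold changes of -0.08 ± 0.17 for Idh3a and -0.02 ± 0.12 for Idh3g (SE). Idh2 was at 33.5, 24.5 and 28.9 FPKM in Bob1KO and 27.8, 31.7 and 37.3 FPKM in WT. Idh1 was the least abundant of all 44 genes and had the largest positive log2 fold change, 0.27 ± 0.28 (SE, adjusted P = 0.951 in limma). Its FPKM was 6.31, 2.68 and 5.93 in Bob1KO and 3.80, 3.88 and 3.55 in WT, so that replicates 1 and 3 of Bob1KO were above and replicate 2 below all WT libraries. The share of Idh2 in the sum of Idh1 and Idh2 was 85.8 ± 3.86% in Bob1KO and 89.5 ± 1.70% in WT (SD, n = 3 each). Cs, the citrate synthase that opens the cycle, had 76.5, 72.3 and 84.9 FPKM in Bob1KO and 78.2, 76.8 and 81.4 FPKM in WT.

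Succinate dehydrogenase, complex II of the respiratory chain, oxidizes succinate with the flavoprotein Sdha and the iron-sulfur protein Sdhb, held in the inner membrane by Sdhc and Sdhd. Sdha varied little, with 127, 115 and 131 FPKM in Bob1KO and 130, 120 and 135 FPKM in WT, and a log2 fold change of -0.04 ± 0.11 (SE). Sdhb was at 161, 126 and 187 FPKM in Bob1KO and 156, 190 and 189 FPKM in WT, with replicate 2 of Bob1KO well below the other 5 libraries. Its log2 fold change was -0.19 ± 0.17 (SE, adjusted P = 0.946 in limma), and 0.01 without both replicate 2 libraries. Sdhc differed by 0.03 on the log2 scale, with 109, 80.7 and 88.5 FPKM in Bob1KO and 86.4, 86.3 and 97.7 FPKM in WT. Sdhd was at 38.4, 18.8 and 20.4 FPKM in Bob1KO and 22.8, 21.2 and 29.4 FPKM in WT, the widest spread of the 4 subunits, and its span shares a few bases with a neighbouring gene. Its log2 fold change was 0.02 ± 0.28 (SE). Sdhb exceeded Sdhd 6.69 ± 2.49 times in Bob1KO and 7.41 ± 1.34 times in WT (SD, n = 3 each).

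Malate dehydrogenase closes the cycle in mitochondria (Mdh2) and serves the malate-aspartate shuttle in the cytosol (Mdh1). Mdh2 was the most abundant of the 44 genes, with 322, 296 and 314 FPKM in Bob1KO and 307, 310 and 392 FPKM in WT. Replicate 3 of WT was well above the other 5 libraries, and the log2 fold change was -0.11 ± 0.13 (SE, adjusted P = 0.958 in limma). Without that library it was 0.01. Mdh1 had 116, 103 and 129 FPKM in Bob1KO and 131, 123 and 160 FPKM in WT, and its log2 fold change of -0.25 ± 0.14 (SE, adjusted P = 0.946 in limma) was the second most negative of the set. Groups overlapped, since replicate 3 of Bob1KO exceeded replicate 2 of WT. Mdh2 was 72.9 ± 1.82% of the summed level in Bob1KO and 70.9 ± 0.756% in WT (SD, n = 3 each). Fh1, the fumarase, was at 35.6, 29.6 and 36.8 FPKM in Bob1KO and 34.9, 30.8 and 41.0 FPKM in WT.

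Pyruvate import and oxidation showed the same order of size. Mpc1 and Mpc2, the subunits of the mitochondrial pyruvate carrier, averaged 72.6 ± 8.19 and 63.6 ± 7.13 FPKM in Bob1KO and 78.6 ± 6.48 and 68.7 ± 4.43 FPKM in WT (SD, n = 3 each). Each had a log2 fold change of about the same size, -0.12 ± 0.12 for Mpc1 and -0.11 ± 0.12 for Mpc2 (SE). In the pyruvate dehydrogenase complex, the decarboxylase subunits Pdha1 and Pdhb were among the least variable members. Pdha1 had 45.5, 46.6 and 50.2 FPKM in Bob1KO and 44.6, 47.2 and 49.0 FPKM in WT. Pdhb had 89.1, 94.3 and 84.8 FPKM in Bob1KO and 95.25, 93.76 and 92.17 FPKM in WT, and Dlat, the acetyltransferase, 18.5, 14.3 and 16.3 FPKM in Bob1KO and 17.1, 16.5 and 19.1 FPKM in WT. Their log2 fold changes were 0.01 for Pdha1, -0.07 for Pdhb and -0.10 for Dlat, each within its standard error. The 95% confidence interval of Pdha1 ran from -0.22 to 0.25 and that of Pdhb from -0.29 to 0.16.

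The kinases that phosphorylate and inhibit pyruvate dehydrogenase all had a lower mean in Bob1KO. Pdk1 was at 14.05, 14.02 and 16.98 FPKM in Bob1KO and 15.6, 18.7 and 18.2 FPKM in WT, with a log2 fold change of -0.21 ± 0.14 (SE). Pdk2 was at 6.04, 5.26 and 5.40 FPKM in Bob1KO and 7.80, 5.15 and 7.36 FPKM in WT, with a log2 fold change of -0.23 ± 0.18 (SE). Pdk3 was at 27.1, 25.6 and 32.0 FPKM in Bob1KO and 32.1, 28.6 and 31.9 FPKM in WT, with a log2 fold change of -0.13 ± 0.12 (SE). The groups overlapped for each kinase, and their adjusted P lay between 0.946 and 0.948 in limma. Pdk3 made up 57.8 ± 0.95% of the summed level of Pdk1, Pdk2 and Pdk3 in Bob1KO and 56.0 ± 1.68% in WT (SD, n = 3 each), and Pdk1 30.7 ± 0.865% in Bob1KO and 31.8 ± 3.76% in WT. Pdk4, the kinase associated with fasting and fat oxidation in muscle and liver, was listed at 0 in all 6 libraries. Glud1, which converts glutamate into 2-oxoglutarate, had 48.6, 48.9 and 54.3 FPKM in Bob1KO and 42.5, 50.6 and 51.8 FPKM in WT. In the table of the authors it shares a row with the copy Gm3219, so reads of both may be mixed.

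Fatty acid oxidation begins with the carnitine shuttle. Cpt1a, the outer membrane carnitine palmitoyltransferase that sets the rate of entry, had the largest positive log2 fold change of its set, 0.22 ± 0.18 (SE, adjusted P = 0.946 in limma). Its FPKM was 25.1, 24.04 and 19.7 in Bob1KO and 24.7, 17.8 and 16.8 in WT. Replicate 1 of WT lay within the Bob1KO range, and the 95% confidence interval ran from -0.20 to 0.63. Slc25a20, the carnitine-acylcarnitine carrier, was at 32.2, 22.9 and 25.6 FPKM in Bob1KO and 29.7, 27.6 and 28.1 FPKM in WT. Cpt2, which releases the acyl group inside mitochondria, was the least abundant of the fatty acid oxidation genes, with 9.965, 7.45 and 11.4 FPKM in Bob1KO and 9.19, 8.10 and 11.7 FPKM in WT. Among other isoforms of the first enzyme, Cpt1c was at 0.0912 to 0.688 FPKM over the 6 libraries and below the level tested.

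**Figure D3:**
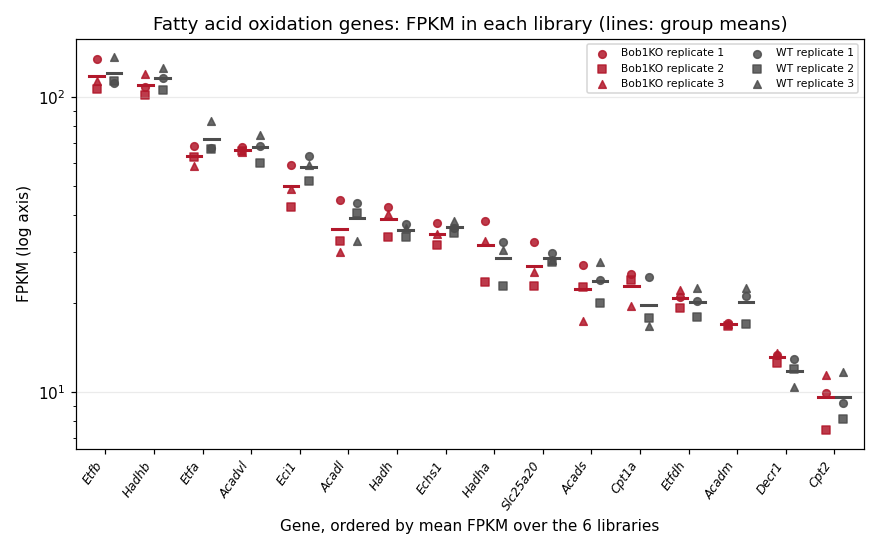
FPKM (log axis) of the 16 fatty acid oxidation genes in each library, ordered by mean level, with Bob1KO (red) left of WT (grey); circles, squares and triangles are replicates 1, 2 and 3 and lines are group means. Levels run from 107 to 136 FPKM for Etfb down to 7.45 to 11.7 FPKM for Cpt2, and the groups overlap for all 16 genes.

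The acyl-CoA dehydrogenases take on chains of different length. Acadm, for medium chains, had the most negative log2 fold change of the set, -0.23 ± 0.14 (SE, adjusted P = 0.946 in limma). It was at 17.13, 16.82 and 17.01 FPKM in Bob1KO and 21.25, 16.99 and 22.6 FPKM in WT. The SD was 0.156 FPKM in Bob1KO and 2.92 FPKM in WT, and replicate 2 of WT lay within the Bob1KO range. Acadvl, for very long chains, was at 68.0, 65.9 and 65.3 FPKM in Bob1KO and 68.2, 59.8 and 74.7 FPKM in WT, with a log2 fold change of -0.02 ± 0.11 (SE). Acadl, for long chains, had a log2 fold change of -0.13 ± 0.19, and Acads, for short chains, one of -0.10 ± 0.19 (SE). Acadl averaged 35.8 ± 7.88 FPKM in Bob1KO and 39.0 ± 5.83 FPKM in WT, and Acads 22.4 ± 4.75 FPKM in Bob1KO and 23.9 ± 3.74 FPKM in WT (SD, n = 3 each).

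The enzymes that follow include both subunits of the mitochondrial trifunctional protein. Hadhb, its thiolase subunit, was at 109, 102 and 120 FPKM in Bob1KO and 117, 106 and 125 FPKM in WT, with a log2 fold change of -0.07 ± 0.12 (SE). Hadha, its hydratase and dehydrogenase subunit, was at 38.1, 23.7 and 32.5 FPKM in Bob1KO and 32.4, 23.0 and 30.3 FPKM in WT, with a log2 fold change of 0.12 ± 0.21 (SE). For both genes replicate 2 was the lowest library in either group. The ratio of Hadhb to Hadha was 3.61 ± 0.722 in Bob1KO and 4.12 ± 0.503 in WT (SD, n = 3 each). Echs1, the short-chain hydratase, averaged 34.4 ± 2.84 FPKM in Bob1KO and 36.3 ± 1.82 FPKM in WT. Hadh, the short-chain hydroxyacyl-CoA dehydrogenase, averaged 38.7 ± 4.55 FPKM in Bob1KO and 35.5 ± 1.82 FPKM in WT (SD, n = 3 each). Unsaturated chains need further enzymes. Eci1, an enoyl-CoA isomerase, was at 58.9, 42.5 and 48.8 FPKM in Bob1KO and 63.1, 52.1 and 58.9 FPKM in WT, with a log2 fold change of -0.22 ± 0.15 (SE, adjusted P = 0.946 in limma). Decr1, the dienoyl-CoA reductase, was at 13.4, 12.6 and 13.6 FPKM in Bob1KO and 12.95, 11.97 and 10.39 FPKM in WT, with a log2 fold change of 0.16 ± 0.13 (SE).

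Electrons from the acyl-CoA dehydrogenases pass through the flavoprotein of Etfa and Etfb to Etfdh and on to ubiquinone. Etfb was the most abundant fatty acid oxidation gene, with 134, 107 and 113 FPKM in Bob1KO and 112, 114 and 136 FPKM in WT, and a log2 fold change of -0.03 ± 0.13 (SE). Etfa was at 68.3, 62.6 and 58.4 FPKM in Bob1KO and 67.3, 66.75 and 83.3 FPKM in WT. Its highest value was again in replicate 3 of WT, and its log2 fold change was -0.19 ± 0.13 (SE, adjusted P = 0.946 in limma). Etfdh averaged 20.8 ± 1.499 FPKM in Bob1KO and 20.3 ± 2.24 FPKM in WT (SD, n = 3 each). Etfb exceeded Etfdh 5.68 ± 0.646 times in Bob1KO and 5.95 ± 0.426 times in WT.

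The members also varied between libraries of 1 group. When each gene was set against its own mean over the 6 libraries, the median deviation of the TCA cycle and pyruvate genes was -0.01, -0.19 and -0.02 on the log2 scale in Bob1KO and -0.02, -0.01 and 0.16 in WT. The fatty acid oxidation genes had median deviations of 0.12, -0.14 and -0.06 in Bob1KO and 0.05, -0.10 and 0.13 in WT, and all genes tested of 0.02, -0.04 and 0.01 in Bob1KO and 0.01, -0.06 and 0.05 in WT. Replicate 2 of Bob1KO was the lowest of the 6 libraries for 20 of 28 TCA cycle and pyruvate genes and for 7 of 16 fatty acid oxidation genes. Of all 10196 genes tested it was the lowest for 2035. Replicate 3 of WT was the highest for 13 of 28 and 9 of 16, and for 2744 of all 10196 genes tested, the most of any library. The summed level of the TCA cycle and pyruvate genes was 1948, 1697 and 1930 FPKM in Bob1KO and 1885, 1929 and 2166 FPKM in WT. That of the fatty acid oxidation genes was 747, 627 and 670 FPKM in Bob1KO and 718, 651 and 756 FPKM in WT. Group ranges overlapped for both sums. Without replicate 2 of Bob1KO the median log2 fold change was -0.02 for the TCA cycle and pyruvate genes and -0.00 for the fatty acid oxidation genes. Without replicate 3 of WT it was -0.04 for the TCA cycle and pyruvate genes and 0.03 for the fatty acid oxidation genes. Replicate 2 of Bob1KO also had the lowest myeloid marker sum and the greatest depth, 1.32 times that of replicate 1 of WT, against 0.921 to 1.14 times in the other libraries, and the part of either in these levels was not tested.

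**Figure D4:**
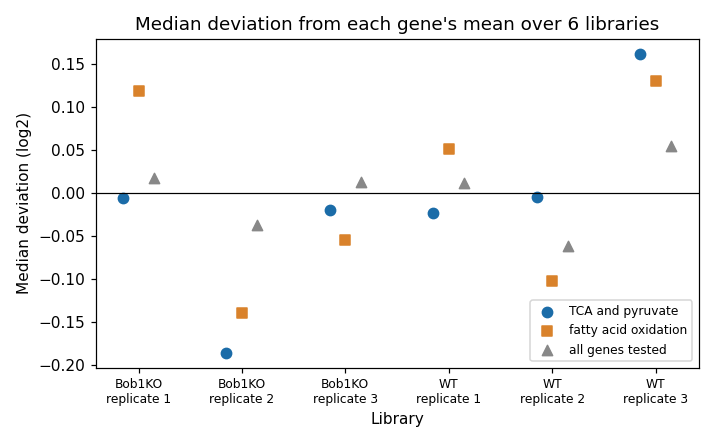
Median deviation (log2) of the TCA cycle and pyruvate genes (blue circles), the fatty acid oxidation genes (orange squares) and all genes tested (grey triangles) from each gene's mean over the 6 libraries, per library, with Bob1KO left of WT. The TCA cycle and pyruvate genes are lowest in replicate 2 of Bob1KO (-0.19) and highest in replicate 3 of WT (0.16), and the other 4 libraries lie between -0.02 and -0.01.

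Related genes outside the 44 were read from lists of the same pathways. Of 24 further genes of the cycle and of pyruvate use, 19 were tested, with 10 negative and 9 positive log2 fold changes, and none passed the adjusted threshold. Sdhaf4, an assembly factor of complex II, had the smallest P of the list, with 28.5, 22.5 and 24.4 FPKM in Bob1KO and 29.8, 32.2 and 36.0 FPKM in WT, and a log2 fold change of -0.37 ± 0.13 (SE, adjusted P = 0.916 in limma). Groups did not overlap for 2 genes of the list, Sdhaf4 and Lipt2, both lower in Bob1KO, against 4.85% of all genes tested. Sdhaf2, which attaches the flavin to Sdha, had a higher mean in Bob1KO, with groups that overlapped. Sdhaf2 was at 34.1, 32.0 and 37.5 FPKM in Bob1KO and 32.8, 19.8 and 25.5 FPKM in WT, with a log2 fold change of 0.42 ± 0.19 (SE, adjusted P = 0.924 in limma). Pdp1, the phosphatase that reactivates pyruvate dehydrogenase, had 2.70, 5.47 and 4.86 FPKM in Bob1KO and 2.53, 1.85 and 3.54 FPKM in WT, and Lipt2, a lipoyl transferase, 1.70, 1.53 and 0.959 FPKM in Bob1KO and 1.78, 2.55 and 2.19 FPKM in WT. The adjusted P was 0.946 for both in limma.

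Glutamine use and anaplerosis gave 14 tested genes of 16, with 9 negative and 5 positive log2 fold changes, and none passed the adjusted threshold or an unadjusted P of 0.05. Glul, the glutamine synthetase, had the smallest P, with 2.41, 3.27 and 4.16 FPKM in Bob1KO and 7.48, 3.19 and 5.16 FPKM in WT. Slc25a12, an aspartate-glutamate carrier, had a log2 fold change of 0.12, Slc38a2, a neutral amino acid transporter, one of -0.30, and Got2, the mitochondrial aspartate aminotransferase, one of -0.09.

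Further genes of fatty acid oxidation numbered 34, of which 29 were tested, with 18 negative and 11 positive log2 fold changes and 0 past the adjusted threshold. Cpt1b and Slc22a5 were not tested because they had no usable value after the match by position, whatever their level. Acat1, the mitochondrial acetoacetyl-CoA thiolase, was the only one at an unadjusted P of 0.05 in limma, against 5.32% of all genes tested. It had 43.2, 41.1 and 54.8 FPKM in Bob1KO and 31.0, 39.9 and 28.0 FPKM in WT. All Bob1KO libraries were above all WT libraries, as for 5.84% of all genes tested. The log2 fold change was 0.48 ± 0.17 (SE, adjusted P = 0.916 in limma). Acadsb, the dehydrogenase of short branched chains, had a log2 fold change of 0.39, Acot13, an acyl-CoA thioesterase, one of -0.29, and Acss1, the mitochondrial acetyl-CoA synthetase, one of -0.29.

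Transcriptional and other regulators of mitochondria gave 10 tested genes of 15, with 7 negative and 3 positive log2 fold changes, and none passed the adjusted threshold. Ppard, a nuclear receptor that induces fatty acid oxidation genes in muscle, had the largest log2 fold change of all related lists, 1.22 ± 0.33 (SE, 95% confidence interval 0.45 to 1.99, adjusted P = 0.731 in limma). It was at 1.66, 3.06 and 2.91 FPKM in Bob1KO and 1.24, 0.206 and 0.237 FPKM in WT. Replicates 2 and 3 of WT were thus near the floor. Ppard reached the required mean of 1 FPKM only through Bob1KO, so that its being tested depended on the group where it is high. The Bob1KO libraries were all above the WT libraries, by a small gap between replicate 1 of Bob1KO and replicate 1 of WT. The unadjusted P was 0.00703 in limma. Of all genes tested, 5.32% had an unadjusted P below 0.05 in limma and 10.7% had groups that did not overlap. Nrf1 was at 23.3, 30.8 and 28.4 FPKM in Bob1KO and 32.9, 26.5 and 35.6 FPKM in WT. Ppargc1b, a coactivator of mitochondrial genes, was at 5.36, 5.55 and 4.79 FPKM in Bob1KO and 6.20, 5.73 and 5.94 FPKM in WT, with groups that did not overlap and a log2 fold change of -0.16 ± 0.14 (SE, adjusted P = 0.946 in limma). Sirt5, a mitochondrial deacylase, had a log2 fold change of -0.20. Ppargc1a and Ppara stayed at or below 0.109 FPKM in every library and were not tested. Pparg, at no more than 0.599 FPKM, and Sirt3, listed at 0 in all libraries, were not tested either. Hif1a had no usable value after the match by position, so its level is not known here.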

How the data were processed

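The 6 libraries were made from 0.7 ng of RNA each. Per the labels and the methods, the authors trimmed reads (cutadapt 1.2.1), aligned them to GRCm38 (mm10) with TopHat2 2.0.13 and computed FPKM with Cufflinks 2.2.1 (tools and build as in the submitters' processing notes). The annotation version was not given in the sources used here. FPKM were deposited per library on transcripts assembled in that library alone, so that rows with an assembly number in place of a name hold 94.07% to 95.92% of the FPKM. The authors also deposited a table comparing both groups. Its gene names and transcript accessions were used. Its group FPKM and its log2 fold change, test statistic, p-value and q-value columns were not. The spans of the genes came from RefSeq gene records and from GENCODE transcripts paired with those accessions, and not from the authors.

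Rows were assigned to genes by position where they shared at least 0.5 of their joint length with the gene or, in a second round, covered at least 0.95 of it, and were summed per gene. This gave 23772 genes, after 6 with a failed status were dropped, and 1 row per library for each member. Mpc1 and Mpc2 carry the older symbols Brp44l and Brp44 in the table. Suclg2, Acadl and Acadvl share part of their span with another annotated gene. A mean of at least 1 FPKM was required, which left 10196 genes, and these were compared on log2(FPKM + 1), a scale that understates changes of low genes, with limma 3.58.1 in R 4.3.3 (variance trend, group as the only term, two-sided, Benjamini-Hochberg over all genes tested, threshold 0.05). Confidence intervals (95%) come from the same fit.

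In simulated data on the same 10196 genes, 100 genes were changed 2-fold and 100 were changed 4-fold for Bob1KO against WT. This test found 67% of the 2-fold and 86% of the 4-fold changes, with 10 false calls. Only 2 genes passed in the real data. With fewer changed genes the adjusted threshold is harder to reach, so these shares may overstate recovery there. The files hold no counts or library totals. Depth relative to replicate 1 of WT, 0.921 to 1.32, was read from rows of up to 8 fragments, taken as whole within 0.05 fragments. The half-width of the interval Cufflinks gives for a member was 1.96% to 16.3% of its FPKM, with a median of 5.61%. It was given for each library by itself and does not cover the spread between libraries. P-values measure the spread between libraries of separate experiments. The members and lists were chosen with earlier results of these data known. All 44 members are given, those with the highest levels, the largest changes, groups apart or an unadjusted P below 0.05 with full statistics, and of each related list the 4 genes with the smallest P. Pdk4, Cpt1c, Ppara and Ppargc1a were named for their roles, and Pparg, Sirt3, Hif1a, Cpt1b and Slc22a5 as genes not tested. Alternatives were other pseudocounts (0.1, 0.5), filters (none, 5), scalings, variance models, overlaps (0.3, 0.7), a replicate block and libraries left out. Python 3.11.15, pandas 2.3.3 and matplotlib 3.10.9 made tables and figures.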

Additional observations from a re-analysis of the deposited data

How the results depend on the processing

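No member and no related gene passed the adjusted threshold under any of the 18 alternatives. The median log2 fold change stayed between -0.10 and -0.05 for the TCA cycle and pyruvate genes and between -0.06 and -0.02 for the fatty acid oxidation genes under other settings. With each library left out it was -0.14 to -0.02 and -0.11 to 0.03. Genes called among all genes numbered 2, and 1 with a pseudocount of 0.1, with a mean FPKM of at least 5 and with the replicate block, and 2 to 7 with each library left out, with 7 without replicate 1 of WT and 4 without replicate 3 of WT. TCA cycle and pyruvate genes at an unadjusted P of 0.05 in limma numbered 1, and 0 without replicate 1 of WT, replicate 3 of WT or replicate 3 of Bob1KO, 2 with median scaling or without both replicate 2 libraries and 3 with no filter on low values. Fatty acid oxidation genes numbered 0, and 1 without replicate 2 of WT. Pou2af1 kept its log2 fold change at -4.60 without both replicate 2 libraries, but its adjusted P was then 0.074 in limma. Suclg1 lay between -0.45 and -0.25 throughout, Cpt1a between 0.11 and 0.38 and Acadm between -0.35 and -0.15. Idh1 lay between 0.09 and 0.61 in 17 alternatives. With a mean FPKM of at least 5 it was not tested, since its mean was 4.36 FPKM, and the TCA cycle and pyruvate set was then without it. Signs were followed gene by gene only for the members given with full statistics, so that others may also have turned. Among these members, some negative log2 fold changes turned positive. Under quantile normalization they reached 0.00696 for Sdha, 0.0202 for Idh3g, 0.0181 for Etfb and 0.0202 for Acadvl. Without both replicate 2 libraries they reached 0.0133 for Sdhb (otherwise -0.19) and 0.0342 for Idh3g. With single libraries left out they ranged from -0.167 to 0.00686 for Mdh2, -0.0935 to 0.00913 for Sdha, -0.124 to 0.0318 for Idh3g, -0.125 to 0.0611 for Etfb and -0.104 to 0.0549 for Acadvl. Same-numbered libraries of both groups deviated together with correlations of 0.113, 0.152 and 0.0996, each the highest for its number. Those of differently numbered libraries were all negative, from -0.107 to -0.0108. Deviations from a group mean cancel within the group, so positive values must be balanced by negative ones. The negative signs are therefore no further evidence of pairing. Replicate 2 was also the library with Y chromosome transcripts in both groups. No label pairs the libraries, so the replicate block is given as an alternative alone. The main P-values therefore take no account of a shared experiment or of sex. The block left 0 members called and the medians at -0.09 and -0.05. Quantile normalization left 9 of 16 fatty acid oxidation genes with a negative log2 fold change, and leaving out both replicate 2 libraries 16 of 28 TCA cycle and pyruvate genes. Recovery of changes smaller than 2-fold was not tested.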
